A study of Mus musculus with 6 samples.

Results

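The canonical transient receptor potential (TRPC) channels were examined in RNA of microdissected arcuate nucleus (ARC). The set held 5 genes, *Trpc1*, *Trpc4*, *Trpc5*, *Trpc6* and *Trpc7*, taken by gene symbol from the 24015 genes counted in each sample. All 5 were present and all 5 passed the filter on low counts. *Trpc5* was chosen by its measured counts, which were known to be lower in the mutants of these very samples, so its difference between genotypes is given as a description, without a test. The other 4 genes were included by family name. RNA sequencing was done on 3 control females, which carried floxed *Esr1* alleles (Esr1fl/fl) without Cre, and on 3 mutant females, which carried the same alleles and Cre under the *Nkx2-1* promoter (Esr1fl/fl;Nkx2-1-Cre). *Esr1* encodes estrogen receptor alpha (ERα). All 6 females were adults, by the labels on a mixed background of CD-1, 129P2 and C57BL/6, with no other treatment named, 11 to 20 weeks old by the methods and 15 weeks old in the legend of the heat map. Cre was present in the mutants only, and *Nkx2-1* is active throughout the medial basal hypothalamus from development onward, so a lifelong loss of ERα, its loss in neighboring nuclei and the presence of Cre cannot be told apart here.

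TRPC channels are cation channels that open downstream of receptors coupled to phospholipase C and let sodium and calcium into the cell, which depolarizes it. They assemble as tetramers and fall into a subgroup of TRPC4 and TRPC5, with which TRPC1 can assemble, and a subgroup to which TRPC6 and TRPC7 belong, which respond to diacylglycerol. In the ARC, TRPC5 is known for carrying depolarizing currents in proopiomelanocortin neurons exposed to leptin or serotonin, and TRPC currents are also described in tuberoinfundibular dopamine neurons and in kisspeptin neurons.

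The 5 genes lie on 4 chromosomes, with positions given on NCBIM37 in the GENCODE annotation. *Trpc5* is found at chrX:140816214-141122723 (minus strand) and *Trpc4* at chr3:53959979-54122389 (plus strand). *Trpc1* at chr9:95607046-95650777 (minus strand) and *Trpc6* at chr9:8544432-8680565 (plus strand) share a chromosome, and *Trpc7* is found at chr13:56874474-56997150 (minus strand). Because the genes are paralogs, their coding transcripts were searched for stretches that a read of 50 bases could not assign. No pair among the 5 genes shared any window of 50 bases, and the longest run in any of the 10 pairs was 37 bases, between *Trpc5* and *Trpc7*. The longest coding runs shared by the closest relatives in each subgroup are shown as examples.
Trpc4 and Trpc5: tgctgtggagaagggggactatgc
Trpc6 and Trpc7: gcggacgtggagtggaa
The first run is 24 bases long and the second 17 bases. Both are shorter than a read. No window of 50 bases from these annotated transcripts matched another of the 5 genes exactly, and matches with mismatches were not searched.

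The promoter of *Trpc5* is shown because ERα, the factor lost in the mutants, binds DNA at the estrogen response element. The sequence is that of RefSeq on GRCm38.p6 (chrX:144688131-144688430, minus strand), from 250 bases before to 50 bases after the start of the gene, and its capitals mark the only half-site of the element, GGTCA or its complement TGACC.
Trpc5: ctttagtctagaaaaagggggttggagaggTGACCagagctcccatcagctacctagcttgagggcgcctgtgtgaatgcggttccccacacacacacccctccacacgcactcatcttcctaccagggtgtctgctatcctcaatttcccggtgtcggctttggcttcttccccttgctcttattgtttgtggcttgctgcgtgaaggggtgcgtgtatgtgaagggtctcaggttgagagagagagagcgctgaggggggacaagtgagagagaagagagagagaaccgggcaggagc
On both strands, a half-site was found in 40.5% of all 32851 promoters of this length and in none of the windows of *Trpc1*, *Trpc4*, *Trpc6* and *Trpc7*. The full element, GGTCA and TGACC separated by any 3 bases, contains the half-site and was found in 0.07% of the promoters and in none of the 5 windows. These matches describe letters in a short window and do not show binding.

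Each sample held from 11792440 to 17877137 counts on genes. Levels are given in CPM, counts per 1000000 counts of the library after trimmed mean of M-values (TMM) normalization. The targeted gene, *Esr1*, had levels of 64.5, 57.5 and 48.5 CPM in control replicates 1 to 3, against 11.8, 9.55 and 7.06 CPM in mutant replicates 1 to 3. The mutant mean of *Esr1* was 16.7% of the control mean. Arcuate neuron markers were present, with 10 of 10 tested and a summed level of 1056 to 1102 CPM in controls and 1215 to 1769 CPM in mutants. Genes listed as markers of the ventromedial nucleus, which borders the ARC, were counted in every library. Over 10 markers they summed to 320 to 724 CPM in controls and 376 to 983 CPM in mutants. The one with the highest level, *Slc17a6*, is by the paper also a gene of kisspeptin neurons in the ARC, so this sum is not specific to the ventromedial nucleus. The paper describes its dissection as checked by the absence of the ventromedial nucleus genes *Tac1* and *Cbln1*. Pars tuberalis markers summed to 6.11 CPM in control replicate 2 and to 469 CPM or more in the other 5 libraries. With 3 females against 3, an exact permutation test of 1 gene cannot give a two-sided p-value below 0.1, so differences were tested with edgeR's quasi-likelihood model across 15236 genes, with a threshold of 0.05 on the adjusted p-value.

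The *Trpc5* level was 130, 126 and 121 CPM in the controls, in the order of their replicate numbers, against 74.8, 77.6 and 72.8 CPM in the mutants, and the values of the other genes follow the same order. The 3 controls lay well above the 3 mutants, and neither genotype varied much within itself. Controls averaged 126 ± 4.44 CPM (SD, n = 3). Mutants averaged 75.1 ± 2.40 CPM (SD, n = 3), or 59.7% of the control mean. The log2 fold change, mutant over control, was -0.75 with a standard error of 0.08. It stayed between -0.77 and -0.72 when each sample was left out in turn, the one low in pars tuberalis transcripts included. In bulk tissue, fewer cells that express a gene and less RNA of it per cell cannot be told apart.

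*Trpc4*, the closest relative of *Trpc5*, was at 32.9, 39.7 and 29.9 CPM in controls and at 31.9, 28.1 and 27.3 CPM in mutants. The genotypes overlapped, since mutant replicate 1 lay above control replicate 3, and control replicate 2 stood highest. The log2 fold change of *Trpc4* was -0.23 (95% confidence interval -0.51 to 0.05, adjusted *p* = 0.635, edgeR). Without control replicate 2 it was -0.11, and over 14 fits its adjusted p-value from edgeR, DESeq2 or limma ran from 0.471 to 0.926. The interval covers no difference and leaves out one as large as that described for *Trpc5*.

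*Trpc1*, whose product joins TRPC4 and TRPC5 in mixed channels, was at 29.0, 29.6 and 31.1 CPM in controls and at 27.3, 31.4 and 31.6 CPM in mutants. Its mutants lay on both sides of its controls. The log2 fold change was 0.01 (95% confidence interval -0.21 to 0.24, adjusted *p* = 0.990, edgeR).

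**Figure D1:**
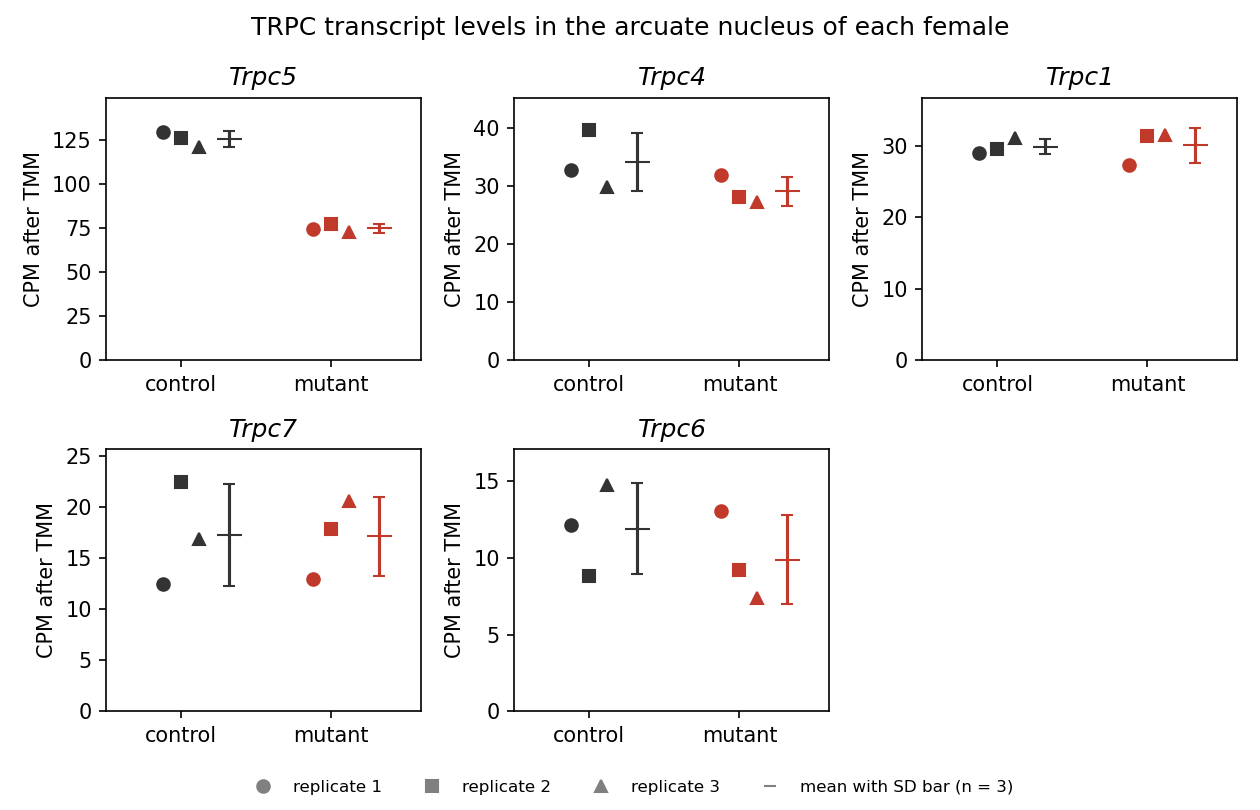
Levels of the 5 TRPC genes in each sample, in CPM after TMM normalization on axes that start at 0, with controls in black, mutants in red, a symbol for each replicate number and a bar for the mean and SD (n = 3). The *Trpc5* values of the mutants, 72.8 to 77.6 CPM, sit below those of the controls, 121 to 130 CPM, while the genotypes overlap in the other 4 genes.

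The diacylglycerol-sensitive subgroup was measured at lower levels and with more spread. *Trpc6* was at 12.1, 8.78 and 14.7 CPM in controls and at 13.0, 9.17 and 7.39 CPM in mutants. The genotypes overlapped over most of their range, and the log2 fold change was -0.27 (95% confidence interval -0.82 to 0.28, adjusted *p* = 0.814, edgeR), an interval wide enough to hold both 0 and the *Trpc5* value. Its value depended on single libraries, with -0.09 without control replicate 3, -0.10 without mutant replicate 3, -0.45 without control replicate 2 and -0.51 without mutant replicate 1.

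*Trpc7* was at 12.5, 22.5 and 16.9 CPM in controls and at 13.0, 17.9 and 20.6 CPM in mutants. The spread within each genotype was far larger than the difference between them, with a log2 fold change of -0.01 (95% confidence interval -0.54 to 0.53, adjusted *p* = 0.998, edgeR). The sign turned without control replicate 2 (0.23) and without mutant replicate 1 (0.15), while without control replicate 1 the value was -0.20 and without mutant replicate 3 it was -0.16. The order of the *Trpc7* levels within each genotype was also that of the summed ventromedial nucleus markers, whose sum was 320, 724 and 542 CPM in controls against 376, 797 and 983 CPM in mutants. The lowest and the highest library of each genotype were thus the same for both. This order was not particular to these markers. Summed astrocyte markers, at 4042, 6874 and 5105 CPM in controls and 4390, 4955 and 6364 CPM in mutants, followed it too. So did the summed genes of phospholipase C and of store-operated calcium entry. The part of the dissection in the spread of *Trpc7* was not tested.

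*Trpc2*, a channel gene of the vomeronasal organ, had 0 counts in each of the 6 libraries, where 3 counts would have given between 0.175 and 0.248 CPM, a limit that covers counting error only.

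Of the 4 genes other than *Trpc5*, 0 were called by edgeR, where 0.118% of all tested genes were called, 0.0591% lower and 0.0591% higher in mutants. DESeq2 and limma voom also called 0 of 4, where they called 1.27% and 0.131% of all genes, and 0 of 4 had an unadjusted p-value under 0.05 in these 3 fits. The median log2 fold change of the 4 was -0.12, against 0.0036 over all 15236 genes. The genotypes overlapped in all 4, where 7.88% of tested genes had all mutants below all controls and another 7.88% all mutants above. *Trpc5*, chosen by these values, was the member whose genotypes did not overlap.

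**Figure D2:**
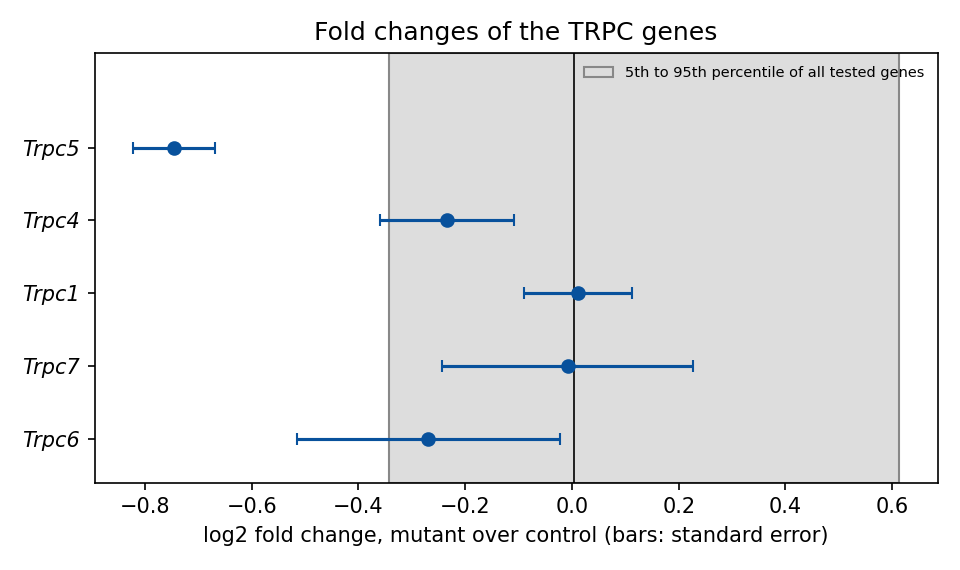
Log2 fold change, mutant over control, of the 5 TRPC genes from edgeR's fit, with bars for the standard error, a black line at the median of all 15236 tested genes and a grey band from their 5th to their 95th percentile (-0.34 to 0.61). *Trpc5* lies outside the band at -0.75, and the other 4 genes inside it.

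The spread between females of one genotype differed among the genes. The coefficient of variation of the CPM was 3.53% in controls and 3.20% in mutants for *Trpc5*, against 2.27% and 3.05% that counting error alone would give at its 907 to 2173 counts per library. For *Trpc1* it was 3.52% and 8.03%, with 4.67% and 4.79% from counting. *Trpc4* varied by 14.7% and 8.45%, with 4.34% and 4.91% from counting. *Trpc6* and *Trpc7* varied more than counting error alone gives. *Trpc6* had a coefficient of 25.01% in controls and 29.2% in mutants at 111 to 205 counts per library, where counting gives 7.47% and 8.50%. *Trpc7* had one of 29.0% and 22.6% at 157 to 386 counts, where counting gives 6.10% and 6.32%. The test was therefore least precise for these 2 genes.

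Levels of different genes were compared per kilobase of annotated exon. In controls, *Trpc5* had the highest level at 25.1 ± 0.886 CPM per kb (SD, n = 3). *Trpc1* followed at 9.92 ± 0.349 and *Trpc4* at 9.85 ± 1.45 CPM per kb, and their ranges over samples overlapped, so this pair could not be ranked. *Trpc7* at 4.70 ± 1.36 and *Trpc6* at 4.25 ± 1.06 CPM per kb also overlapped. From *Trpc5* to *Trpc1* and from *Trpc4* to *Trpc7*, the ranges of the controls did not overlap. In mutants the order and the overlapping pairs were the same, with *Trpc5* at 14.97 ± 0.479 CPM per kb and still above every value of *Trpc1*, the highest of which was 10.5 CPM per kb.

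Added up per kilobase, the 5 genes came to 52.8, 55.7 and 52.9 CPM per kb in controls and to 41.4, 42.2 and 41.1 CPM per kb in mutants. *Trpc5* made up 49.1%, 45.2% and 45.6% of this sum in the controls and 36.1%, 36.7% and 35.3% in the mutants. Without *Trpc5* the sum was 26.8, 30.5 and 28.8 CPM per kb in controls and 26.5, 26.7 and 26.6 CPM per kb in mutants, so the mutants lay just under the lowest control. The ratio of *Trpc5* to *Trpc4* per kilobase was 2.73, 2.20 and 2.80 in controls and 1.62, 1.91 and 1.84 in mutants, and that of *Trpc5* to *Trpc1* was 2.69, 2.57 and 2.34 in controls and 1.65, 1.48 and 1.39 in mutants. For both ratios the highest mutant lay below the lowest control. Apart from the sum without *Trpc5*, these sums, shares and ratios use the *Trpc5* counts for which the gene was chosen. None of them was tested, the sum without *Trpc5* included.

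**Figure D3:**
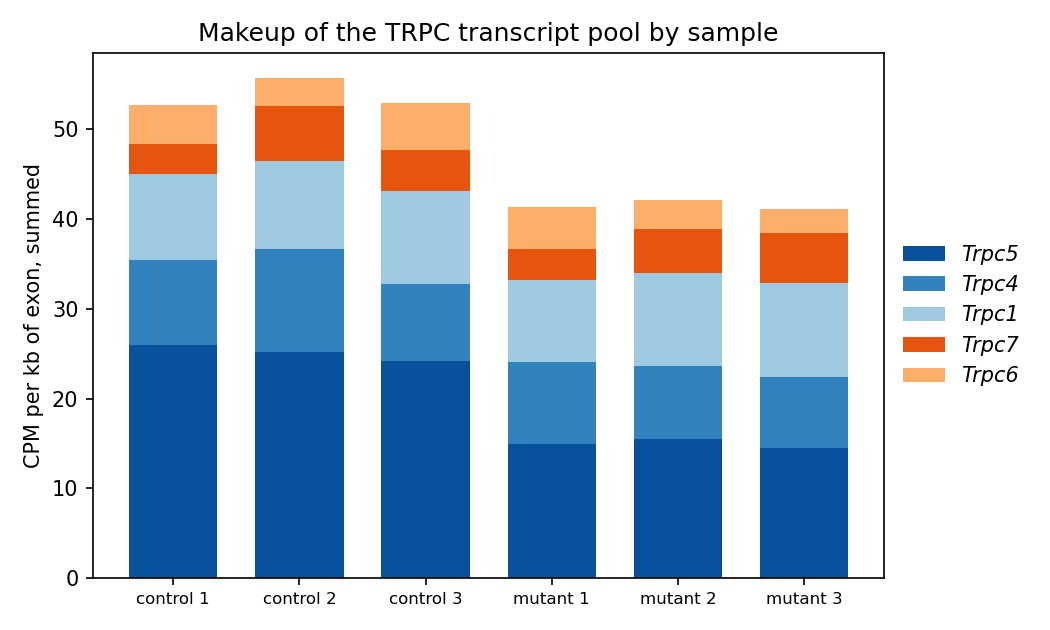
Level of each TRPC gene in CPM per kilobase of exon, stacked for each of the 6 samples. The dark blue segment of *Trpc5* is 24.2 to 25.9 CPM per kb high in controls and 14.5 to 15.5 in mutants, and the segments above it, which add up to 26.5 to 30.5 CPM per kb, change less between genotypes.

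Genes that act with TRPC channels were read from 5 lists of 73 genes, of which 72 were counted and 66 tested. With edgeR, 0 of the 66 were called, where 0.118% of all genes were. An unadjusted p-value under 0.05 was found for 8 of them (12.1%), 5 lower and 3 higher in mutants, and for 8.85% of all tested genes. DESeq2 called 2 of the 66, *Prlr* and *Trpm1*, where it called 1.27% of all genes, and limma voom called 0, where it called 0.131%. In 7 of the 66 genes, or 10.6%, the genotypes did not overlap, against 15.8% of all tested genes. The median log2 fold change of the 66 was 0.07.

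Among 13 receptors and G proteins, 3 had mutants wholly below controls, where 7.88% of all tested genes did. *Prlr*, the prolactin receptor, which excites tuberoinfundibular dopamine neurons, was at 408, 444 and 376 CPM in controls and at 294, 241 and 277 CPM in mutants (log2 fold change -0.60, standard error 0.10, adjusted *p* = 0.0606, edgeR, and 2.79e-05, DESeq2). *Gnai1*, a G protein alpha subunit of the inhibitory class, was at 651, 691 and 522 CPM in controls and at 508, 473 and 483 CPM in mutants (log2 fold change -0.35, adjusted *p* = 0.337, edgeR). The third was *Gnai2*, with a log2 fold change of -0.11. *Gnaq*, whose product couples receptors to phospholipase C, had one of -0.14 (adjusted *p* = 0.723, edgeR). *Lepr*, *Insr* and *Htr2c*, the receptors of leptin, insulin and serotonin, had log2 fold changes of 0.03, -0.01 and -0.02. *Tacr3*, the neurokinin B receptor, had one of -0.58 (adjusted *p* = 0.395, edgeR) with overlapping genotypes. *Lepr*, *Insr*, *Htr2c*, *Tacr3* and *Gnai2*, and *Pkd2l1* of the TRP channels, were named after their values had been seen.

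None of 12 phospholipase C genes (0 of 12 by edgeR and by DESeq2, 0 with an unadjusted p-value under 0.05) and none of 8 genes of store-operated calcium entry (the same counts, 0 of 8) was called. *Plcb4*, the phospholipase gene with the highest CPM, had a log2 fold change of 0.17 (adjusted *p* = 0.737, edgeR), and *Plce1* and *Plcb2* had -0.03 and 0.45. *Itpr1*, the inositol trisphosphate receptor that releases calcium from the endoplasmic reticulum, was at 209, 298 and 256 CPM in controls and at 250, 322 and 350 CPM in mutants, with a log2 fold change of 0.27 (adjusted *p* = 0.668, edgeR). *Stim1* and *Stim2*, the calcium sensors of the endoplasmic reticulum, had log2 fold changes of -0.07 and 0.06.

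Of 19 genes for proteins that bind TRPC channels, 0 were called by edgeR or DESeq2 and 2 had an unadjusted p-value under 0.05. *Homer2*, a postsynaptic scaffold, was at 130, 171 and 119 CPM in controls and at 97.8, 107 and 115 CPM in mutants (log2 fold change -0.39, adjusted *p* = 0.415, edgeR). *Fkbp4*, an immunophilin, had a log2 fold change of -0.20 (adjusted *p* = 0.4998, edgeR). In both genes every mutant lay below every control, as in 7.88% of all tested genes. *Fkbp1a*, a gene of the same class as *Fkbp4*, had a log2 fold change of 0.09 (adjusted *p* = 0.879, edgeR).

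Of 20 other TRP channel genes, 14 were tested, 0 were called by edgeR and 3 had an unadjusted p-value under 0.05, all higher in mutants. *Trpm1* was at 0.469, 0.349 and 2.22 CPM in controls and at 4.62, 4.40 and 5.66 CPM in mutants (log2 fold change 2.30, standard error 0.57, adjusted *p* = 0.249, edgeR, and 0.00465, DESeq2). Its 3 mutants lay above its 3 controls, among which control replicate 3 was highest. *Trpa1*, the channel for irritants, was at 0.804, 1.34 and 1.86 CPM in controls and at 4.46, 2.01 and 2.80 CPM in mutants (log2 fold change 1.20, adjusted *p* = 0.394, edgeR). *Trpm3* had a log2 fold change of 0.35 (adjusted *p* = 0.417, edgeR) and *Trpm7* one of 0.03 (adjusted *p* = 0.976, edgeR).

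**Figure D4:**
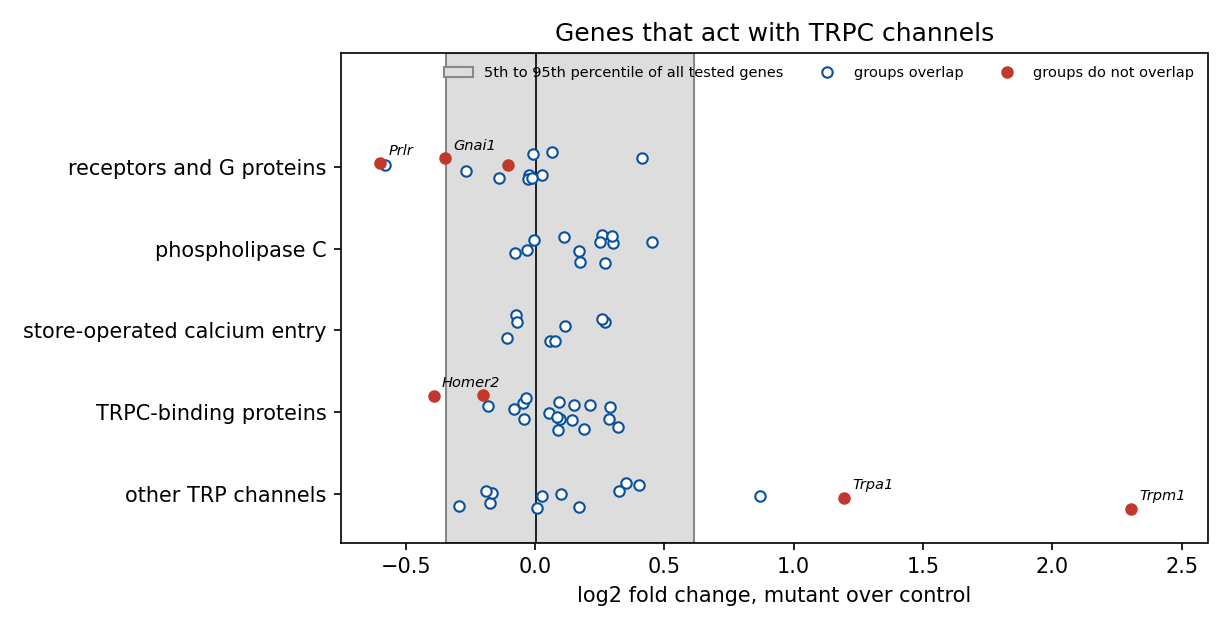
Log2 fold change, mutant over control, of 66 tested genes in 5 lists of TRPC partners, with filled red points where the genotypes did not overlap, a black line at the median of all tested genes and a grey band from their 5th to their 95th percentile. Most points lie inside the band, *Prlr*, *Tacr3*, *Homer2* and *Gnai1* lie to its left at -0.60, -0.58, -0.39 and -0.35, and *Trpm1*, *Trpa1* and *Pkd2l1* to its right at 2.30, 1.20 and 0.87.

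Markers of the cells in the dissection are given beside *Trpc5*, and their part in its difference was not tested. Of 10 arcuate neuron markers, 4 were higher in every mutant than in any control (7.88% of all genes were), with 0 called by edgeR, 4 at an unadjusted p-value under 0.05 and 4 called by DESeq2. Of 8 dopamine neuron markers, 1 was called lower by edgeR (0.0591% of all genes were), 3 were called by DESeq2 (1.27%) and 3 lay lower in every mutant (7.88%). Their summed level was 404 to 474 CPM in controls and 321 to 368 CPM in mutants. The fall was not shared by the whole list, whose log2 fold changes had a median of -0.07 and reached 0.29. The called gene was *Slc6a3*, the dopamine transporter, at 19.6, 25.7 and 27.7 CPM in controls and at 4.46, 5.72 and 5.06 CPM in mutants (log2 fold change -2.25, adjusted *p* = 0.000884, edgeR). *Sv2c*, a synaptic vesicle protein gene on this list, had a log2 fold change of -1.08 (adjusted *p* = 0.149, edgeR, and 2.87e-06, DESeq2), with every mutant below every control. *Slc18a2*, the vesicular monoamine transporter of the same neurons, had a log2 fold change of -0.01 (adjusted *p* = 0.996, edgeR). The 10 pan-neuronal markers, with none called by edgeR or DESeq2 and 1 with an unadjusted p-value under 0.05, had a median log2 fold change of 0.03. Their summed level was 4025 to 5226 CPM in controls and 4285 to 5812 CPM in mutants, so these overlapped. All 10 oligodendrocyte markers were higher in every mutant than in every control (7.88% of all genes were), with 2 called by edgeR (*Cldn11* and *Aspa*) and 5 by DESeq2, and their summed level was 656 to 1225 CPM in controls and 1584 to 1759 CPM in mutants. Microglia markers summed to 250 to 254 CPM in controls and 313 to 327 CPM in mutants, with 0 of 8 called by edgeR, 4 at an unadjusted p-value under 0.05 and 2 called by DESeq2. Tanycyte and ependymal markers summed to 564 to 901 CPM in controls and 937 to 1154 CPM in mutants, with 0 of 8 called by edgeR, 2 at an unadjusted p-value under 0.05 and 1 called by DESeq2. The summed levels of the 8 astrocyte, 8 mural and endothelial and 6 pars tuberalis markers overlapped between genotypes, with 0 called in each list by edgeR and DESeq2 and 0 at an unadjusted p-value under 0.05. The summed ventromedial nucleus markers also overlapped, with 0 of 10 called by either tool and 1 at an unadjusted p-value under 0.05.

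The genes most like *Trpc5* over the 6 samples were ranked by the root mean square difference between their log2 CPM, centered on the mean of each gene, and that of *Trpc5*. *Gpr101*, an orphan G protein-coupled receptor gene, was nearest, with a difference of 0.06 on the log2 scale, where the median over 15235 genes was 0.42. Its level was 425, 412 and 407 CPM in controls and 268, 254 and 258 CPM in mutants, and its log2 fold change was -0.67. As for *Trpc5*, each genotype was tight and the genotypes lay apart. *Map3k15*, *Rbms3*, *Mum1l1* and *Scube1* came next, at 0.10 to 0.12, with log2 fold changes between -0.69 and -0.62. Only *Gpr101* stayed among the nearest 5 in all 6 rankings that left out 1 sample, never below rank 3. *Map3k15* did so in 1 of 6, and the other 3 genes in 0 of 6. No test was made, since *Trpc5* was chosen for its pattern and genes of the same pattern share it.

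**Figure D5:**
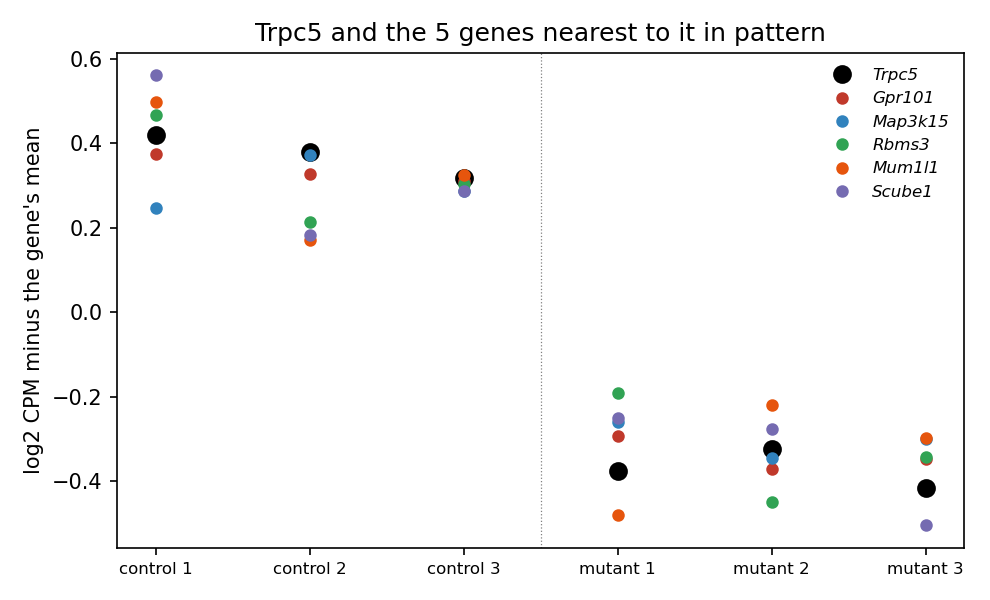
Log2 CPM minus the mean of each gene in the 6 samples, for *Trpc5* (large black points) and the 5 genes nearest to it. *Gpr101* follows *Trpc5* most closely, with a root mean square difference of 0.06, and all 6 genes lie above 0 in the controls and below 0 in the mutants.

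Of the tested genes matched by symbol on chromosome X, the nearest 3 to start before *Trpc5* and the nearest 3 to start after it were *Dcx*, *A730046J19Rik*, *Alg13*, *Mageb16-ps1*, *Zcchc16* and *Lhfpl1*. *Mageb16-ps1* lies within *Trpc5* on the same strand, with 0 bases of shared exon. EdgeR and DESeq2 called 0 of these 6, where they called 0.118% and 1.27% of all genes. An unadjusted p-value under 0.05 was found for 2 of the 6, and for 8.85% of all tested genes. The log2 fold change was below 0 in 5 of the 6, where the median over all tested genes was 0.0036. *Dcx*, a microtubule-binding protein of young neurons, was at 56.4, 62.8 and 60.8 CPM in controls and at 58.7, 53.0 and 62.0 CPM in mutants (log2 fold change -0.05, adjusted *p* = 0.917, edgeR). The 2 genes with the unadjusted p-value were *Lhfpl1* (log2 fold change -1.06, standard error 0.33, adjusted *p* = 0.352, edgeR) and *Zcchc16* (-0.43, standard error 0.17, adjusted *p* = 0.497, edgeR), both with overlapping genotypes. *Trpc5os*, a transcript on the other strand inside *Trpc5*, is not among the 6, since the annotation has no such symbol. It was at 0.628 to 1.65 CPM in all libraries (log2 fold change -0.20, adjusted *p* = 0.943, edgeR). In the annotation, *Gm15070* and *Gm15071* overlap the span of *Trpc5* on the plus strand, each with 0 bases of shared exon. Whether either is *Trpc5os* was not settled.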

How the data were processed

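RNA of microdissected ARC was amplified from 10 to 50 ng per sample by the methods (50 ng in the labels). Reads of 50 bp were aligned by the authors with TopHat2 2.1.0 and counted on genes with HTSeq 0.6, and the deposited values are raw counts per gene symbol, not normalized, 1 file per sample. The labels name the build mm9, and the methods NCBI37/mm10. Strand was not stated to be used. Gene positions and exon lengths came from GENCODE vM1 on NCBIM37, in which 20763 of 24015 symbols had a single match, and promoters from RefSeq.

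Counts were filtered with edgeR's default filter (15236 genes), scaled by TMM and tested, mutant against control, with edgeR 4.0.16 (quasi-likelihood test, robust, R 4.3.3). Standard errors were taken as the fold change divided by the root of the F statistic. DESeq2 1.42.0, limma 3.58.1, other filters and normalizations, a replicate block and leaving out each sample were alternatives, and the fits were tested on simulated data. Adjusted p-values are Benjamini-Hochberg values over all tested genes. Members and gene lists were chosen with earlier results of these data known. The genes named were the members, *Trpc2*, *Esr1*, those called in each list, those with the 2 highest levels in each list, those with the 2 smallest p-values in each TRPC partner list and the 5 most like *Trpc5* (prior count 2). Of the marker lists, only named genes on which a result turned are printed. Some genes this rule would name are not reported here, and lists, sums and shares leave them out. *Saraf* was not found by that symbol in the table.

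Total counts of 11792440 to 17877137 set the precision, and confidence intervals at 95% come from the edgeR fit. Samples of one genotype differed by more than sampling noise (chi-square per degree of freedom 6.90 to 21.5). Nothing beyond the labels says how samples were drawn. The p-values rest on the spread between libraries of one genotype, which mixes differences between females with those of dissection and library preparation.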

Additional observations from a re-analysis of the deposited data

How the results depend on the processing

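The log2 fold change of *Trpc5* ran from -0.77 to -0.72 with each sample left out, and was -0.68 with the beta prior of DESeq2, which shrinks fold changes by construction. That of *Trpc1* ran from -0.025 to 0.075 and that of *Trpc7* from -0.20 to 0.23 with each sample left out. The sign of *Trpc7* also turned with limma voom (0.012) and the replicate block (0.00075). No setting called *Trpc1*, *Trpc4*, *Trpc6* or *Trpc7*, and without control replicate 3 *Trpc4* alone of the 4 had an unadjusted p-value under 0.05.

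The number of called genes was 18 with edgeR, 191 with DESeq2, 187 with its beta prior, 106 when genes with as few as 1 count in any sample were tested, 123 with the replicate block and from 7 to 46 with each sample left out (46 without control replicate 2, 9 without mutant replicate 2, 7 without mutant replicate 3). Of the TRPC partners, 0 were called with edgeR, 2 with DESeq2 and 2 with its beta prior (*Prlr* and *Trpm1*), 1 with the lower filter and 1 with the replicate block (*Prlr* in both), and from 0 to 1 with each sample left out (*Trpm1* without control replicate 3, log2 fold change 3.56). The cause was not tested. Deviations from the genotype means correlated with r = 0.28, 0.05 and -0.0026 between samples numbered 1, 2 and 3. Between samples of unlike number, r ran from -0.26 to 0.21. Such correlations cannot decide whether samples of one number were paired, and the labels give only the number.

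With the longest transcript as length, the control level of *Trpc5* was 30.3 CPM per kb. Undivided by length, the control shares of *Trpc5*, *Trpc4*, *Trpc1* and *Trpc6* were 57.5%, 15.6%, 13.7% and 5.45%. Of the 5 genes most like *Trpc5*, from 1 to 2 were kept with each sample left out.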

Other observations

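Of the 15236 tested genes, 535 were matched by symbol to chromosome X, and their median log2 fold change was -0.03. *Gpr101* lies on chromosome X from 54749845 to 54756934 on NCBIM37. *Map3k15* (156426365 to 156561283) and *Mum1l1* (135744581 to 135772874), which were also among the 5 genes most like *Trpc5*, lie on chromosome X as well, while *Rbms3* is on chromosome 9 and *Scube1* on chromosome 15. With each sample left out in turn, *Map3k15* stayed among the nearest 5 in 1 of 6 rankings and *Mum1l1* in 0 of 6. The shared chromosome was not tested, since the genes were picked by their pattern.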
